A study of Rattus norvegicus with 4 samples.

Results

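The substrate adaptors of the ASB, KLHL and KLHDC families were examined in neonatal rat ventricular cardiomyocytes treated with phenylephrine (PE). These are the genes named Asb, Klhl or Klhdc with a number, each represented by its annotated open reading frame (ORF). Where a gene had more than 1 annotated ORF, the ORF was chosen by its footprint counts summed over the 4 libraries, and the families were picked with results of the same PE and control comparison in view, so counts over members describe them. In all, 57 of 13694 genes with an annotated ORF were members, 15 of them Asb, 33 Klhl and 9 Klhdc genes. The cells came from the cardiac ventricle of Sprague-Dawley rats at postnatal day 2, and pre-plating for a short time was used to deplete other cells. The PE group had 2 libraries from cells given PE, an α1-adrenergic agonist used as a growth stimulus, at a dose of 20 µM over 24 h. The control group had 2 libraries from cells titled as control, although the treatment text of the labels names PE for all libraries. All cells grew in medium with serum. Ribosome profiling counted RNA fragments protected by ribosomes, so a value holds both the amount of an mRNA and how heavily it was translated.

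Cullin-RING ubiquitin ligases are built on a cullin scaffold that binds a RING protein, which recruits the ubiquitin-charged enzyme, and an exchangeable adaptor, which chooses the protein to be marked. ASB proteins hold ankyrin repeats that contact the substrate and a SOCS box that joins elongin B, elongin C and CUL5. KLHL proteins hold a BTB domain that binds CUL3 and kelch repeats that contact the substrate. Several KLHDC proteins, which have kelch repeats without the BTB domain, are adaptors of CUL2 that read the ends of proteins. Many ASB and KLHL genes are expressed mainly in striated muscle, and mutations in human KLHL9, KLHL24, KLHL40 and KLHL41 cause diseases of skeletal or heart muscle.

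Library totals over all ORFs ran from 12117629 to 12537740 counts in PE and from 11446574 to 13827599 in control, and member ORFs took 20538 and 20881 counts in PE and 23738 and 28691 in control. Nothing in the labels tells whether replicate libraries are separate cultures, and p-values then reflect only the spread between these libraries, which may be technical. Of 12 cardiomyocyte markers, 10 were measured, with a summed level of 75258 and 75800 CPM (counts scaled to a common library total) in PE and 67397 and 67504 CPM in control, while Myl2 and Ttn were not analysed here. Of these 10 markers, 7 fell and 3 rose. Nppa, which encodes a natriuretic peptide, rose by 1.86 on the log2 scale. Without Nppa, the sum was 57506 and 57930 CPM in PE and 62424 and 62679 CPM in control. Much of that decrease was Myh6, at 2616 and 2691 CPM in PE and 6568 and 6617 CPM in control. Myh6 had only 0.19 counts per P-site (footprint assigned to the ribosome's peptidyl site), against a median of 1.16 over ORFs with counts. Summed fibroblast markers were at 29248 and 29647 CPM in PE and 39484 and 39770 CPM in control. Of the 10 fibroblast markers, 6 fell, 2 rose and Lum did not pass. Col1a2 had 2 counts in all against 158850 P-sites and adds nothing to the sum. Endothelial markers were at 191 and 196 CPM in PE and 296 and 284 CPM in control (9 of 10). Of these 9, 5 fell, 1 (Egfl7) rose and 3 did not pass. Much of the decrease was Cdh5, at 68.5 and 76.6 CPM in PE and 144 and 135 CPM in control. Macrophage and leukocyte markers were at 432 and 423 CPM in PE and 667 and 638 CPM in control (10 of 10, with Cd163 at 0). Of the 9 tested, 7 fell, 0 rose and 2 did not pass. Smooth muscle and pericyte markers, a list that includes desmin of cardiomyocytes, were at 6765 and 6878 CPM in PE and 4734 and 4782 CPM in control (10 of 10). Of these, 6 fell and 4 rose, and without desmin the sum was 2678 and 2712 CPM in PE and 2567 and 2606 CPM in control. Of 12 skeletal muscle genes 3 were measured, at 421 and 423 CPM in PE and 955 and 973 CPM in control, nearly all from Ckm, which the heart also expresses. Fewer cells of a type and less RNA per cell cannot be told apart in these bulk libraries, and the part of these marker levels in the member values was not tested.

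Adaptors with a large change after PE were lower, in all 3 families, with Klhdc7a the single such KLHDC gene. Klhl33, Klhdc7a and Asb14 were 26.1-fold, 22.5-fold and 12.02-fold lower in PE than in control, the scarce Asb10 was at 6.03% of control, and Asb18, Asb15, Klhl38, Asb9, Klhl4 and Asb12 followed with 3.98-fold to 2.26-fold lower footprints. The largest increase that passed the test was that of Klhdc8b, 1.65-fold. The question was which adaptor ORFs changed their ribosome occupancy with PE. Of the 57 members, 52 had enough counts to be tested, and 18 were lower and 5 higher in the quasi-likelihood test of edgeR, with p-values adjusted after Benjamini and Hochberg over all 12609 tested ORFs and a threshold of 0.05. The other 29 did not pass. Members were lower in 34.6% and higher in 9.62% of those tested, where 21.3% of all tested ORFs were lower and 21.4% higher. At least 2-fold lower were 10 members, or 19.2%, against 4.49% of all tested ORFs, and 0 members were at least 2-fold higher, against 3.5% of all tested ORFs. Summed over all members, footprints stood at 1717 and 1697 CPM in PE and 2045 and 2047 CPM in control. The median log2 fold change was -0.12 over tested members and 0.00038 over all tested ORFs. Called in either direction were 23 members, or 44.2%, near the 42.7% of all tested ORFs. PE and control libraries did not overlap in 37 of the 52 members, or 71.2%, near the 68.6% of all tested ORFs. In 27 of these PE was lower, where 34.3% of all tested ORFs had PE lower, and in 10 PE was higher, where 34.4% had PE higher. DESeq2 called 16 members lower and 3 higher. Of the 12668 ORFs with an adjusted p in DESeq2, 13.6% were lower and 13.6% higher, or 27.2% called in either direction. Against a 1.5-fold change, edgeR called 10 members lower, with 4.36% of all tested ORFs lower, and 0 higher, with 3.64% higher. Of the tested members, Asb10, Asb14, Klhdc4, Klhdc7a and Klhl33 reached the low-count filter in both control libraries but not in both PE libraries, and Klhdc1 and Klhdc8a reached it in both PE libraries but not in both control libraries, so these counts over tested members are a description.

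**Figure D1:**
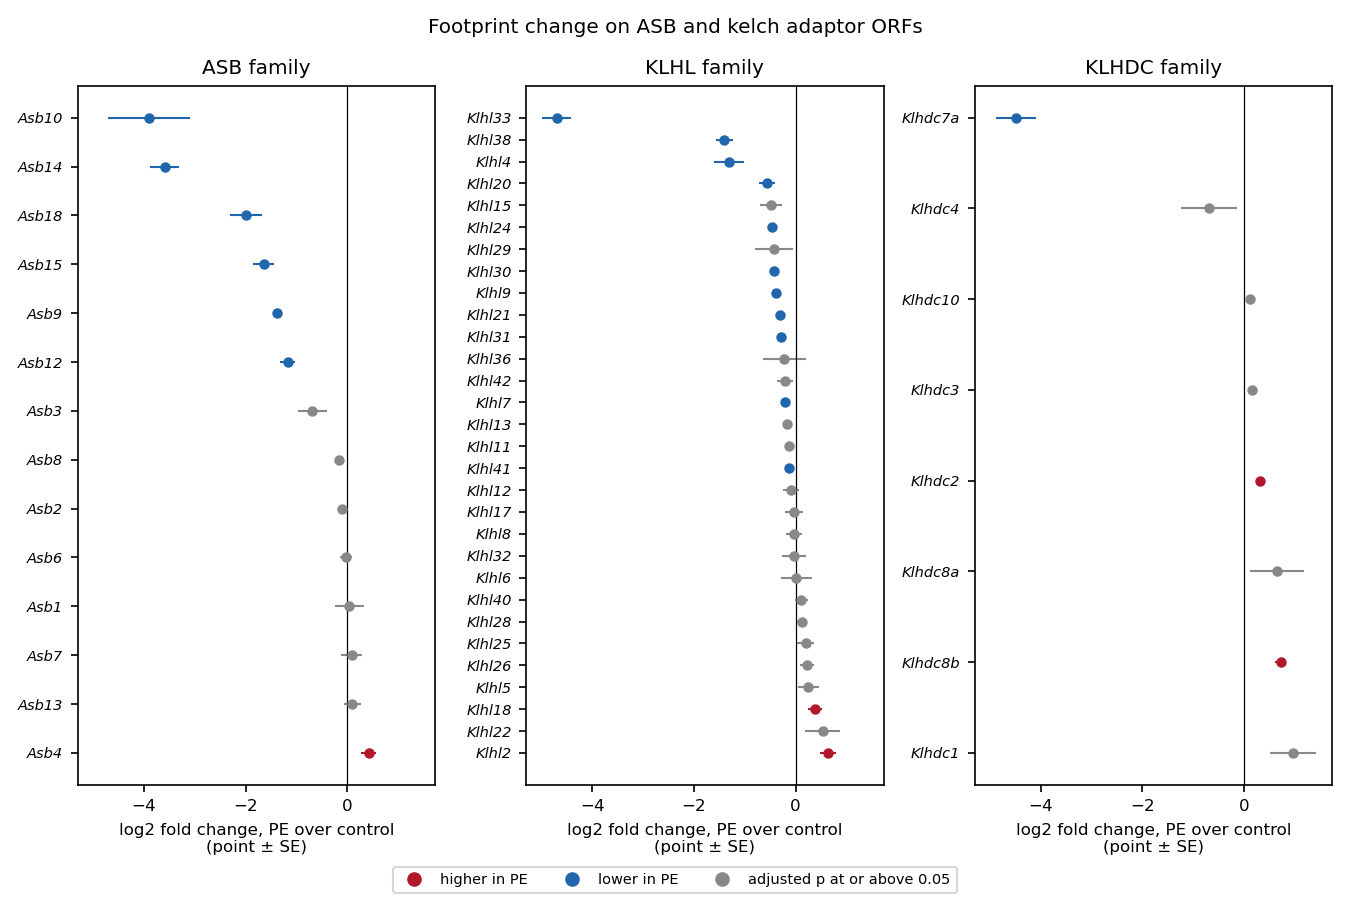
Log2 fold change of PE over control (x axis, point with its SE) for each tested member (y axis), in a panel for the ASB, KLHL and KLHDC families. Members higher in PE are red, those lower are blue and those with an adjusted p of 0.05 or more are grey; Klhl33, Klhdc7a, Asb10 and Asb14 lie lowest, at -3.59 or below, and the highest called member, Klhdc8b, at 0.72.

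Klhl33, a KLHL gene (Rnor_6.0 chromosome 15, 27813393 to 27815261, minus strand), had 10 and 4 counts in the PE libraries and 195 and 195 in the control libraries. That is 0.836 and 0.325 CPM in PE, against 16.8 and 13.9 CPM in control, a log2 fold change of -4.70 ± 0.28 (SE) and its adjusted p was 1.4e-15 by edgeR. Both PE libraries were far below both control libraries, and Klhl33 was the eighth lowest of all tested ORFs by fold change. AC130146.1, an ORF on the same strand at 27818627 to 27819376, had 0.502 and 0.0813 CPM in PE and 6.46 and 7.20 CPM in control. Scaled to ORF length, the pair also had similar densities, with Klhl33 at 0.363 CPM per kilobase in PE and 9.60 in control and AC130146.1 at 0.446 in PE and 10.4 in control. The next listed ORFs on that side moved little, Osgep by -0.39 and Apex1 by 0.09 on the log2 scale, the second not past the test.

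Klhdc7a (chromosome 5, 158436757 to 158439078, minus strand) had 0.334 and 0.244 CPM in PE and 7.41 and 6.06 CPM in control, from 4 and 3 counts against 86 and 85. Its log2 fold change was -4.49 ± 0.39 (SE; adjusted p = 2.3e-11, edgeR), and the groups were far apart. It was the single KLHDC member called lower, and the other tested members of its family changed less than 2-fold in either direction.

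Of the 14 tested ASB genes, 6 (42.9%) fell, each of them at least 2-fold, 1 (7.14%) rose and 7 did not pass. Over all tested ORFs, 21.3% were lower, 4.49% at least 2-fold lower and 21.4% higher. The median log2 fold change of the tested ASB genes was -0.42. Asb14 (chromosome 16, 2543134 to 2556624, plus strand) had 0.669 and 0.894 CPM in PE and 9.56 and 9.49 CPM in control, a log2 fold change of -3.59 ± 0.28 (SE; adjusted p = 1.9e-12, edgeR). The control libraries nearly coincided and both PE libraries lay far below them. Asb10 (chromosome 4, 7158460 to 7167060, plus strand) was scarce, with 2 and 0 counts in PE and 20 and 15 in control. PE stood at 6.03% of control for this gene, with an exact Clopper-Pearson 95% interval of 0.703% to 23.5% that covers counting error only (adjusted p = 1.7e-04, edgeR).

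Asb18 (chromosome 9, 97085354 to 97151832) had 1.09 and 1.38 CPM in PE and 4.82 and 5.06 CPM in control, a log2 fold change of -1.99 ± 0.31 (SE). Asb15 (chromosome 4, 51626851 to 51642194), a muscle ASB gene, had 2.76 and 3.25 CPM in PE and 9.82 and 9.06 CPM in control, or -1.64 ± 0.21. Asb12 (chromosome X, 64714484 to 64715816) had 7.02 and 6.91 CPM in PE and 15.5 and 15.9 CPM in control, or -1.17 ± 0.15. In all 3 genes the spread within a group was small beside the gap between groups.

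Asb9, whose human protein binds creatine kinases and leads them to degradation, was the most abundant ASB gene per kilobase of ORF in control. It had 29.3 and 28.8 CPM in PE and 77.6 and 74.8 CPM in control (chromosome X, 31758970 to 31780398), a log2 fold change of -1.39 ± 0.07 (SE; adjusted p = 2.5e-17, edgeR). With footprint densities of 32.9 CPM per kilobase in PE and 86.4 in control, it was above Asb8 and Asb2 in control and below both in PE. Among creatine kinases, the cytosolic Ckb had a log2 fold change of -0.03 and did not pass, the muscle form Ckm fell by 1.19, and of the mitochondrial forms Ckmt1 rose by 2.99 and Ckmt2 fell by 1.86.

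Asb2, which directs filamins to degradation in blood and muscle cells, had 85.9 and 79.2 CPM in PE and 89.9 and 88.3 CPM in control. The groups did not overlap, but the log2 fold change of -0.11 ± 0.06 (SE) did not pass (adjusted p = 0.11, edgeR), and it passed without PE replicate 1, at -0.17 (adjusted p = 0.033). Of its reported substrates, Flna fell by 0.53 and Flnc by 0.39 on the log2 scale. Asb4, known from developing blood vessels, was the ASB gene that rose, with 11.95 and 12.9 CPM in PE and 8.96 and 9.56 CPM in control. Its log2 fold change of 0.42 ± 0.15 had an adjusted p = 0.020 by edgeR, which became 0.18 in DESeq2, 0.13 without PE replicate 2 and 0.087 without control replicate 1. The remaining tested ASB genes, Asb1, Asb3, Asb6, Asb7, Asb8 and Asb13, ranged from -0.69 (Asb3) to 0.10 (Asb13). Asb3 had only 0.151 counts per P-site, against a median of 1.16 over ORFs with counts, so few of its footprints were counted. Its adjusted p of 0.052 by edgeR became 0.0076 without control replicate 2, at -1.02, and lay between 0.030 and 0.048 with library totals alone, without a low-count filter and with a stricter one. Asb8, at -0.16, passed without control replicate 1, at -0.25 (adjusted p = 0.026).

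**Figure D2:**
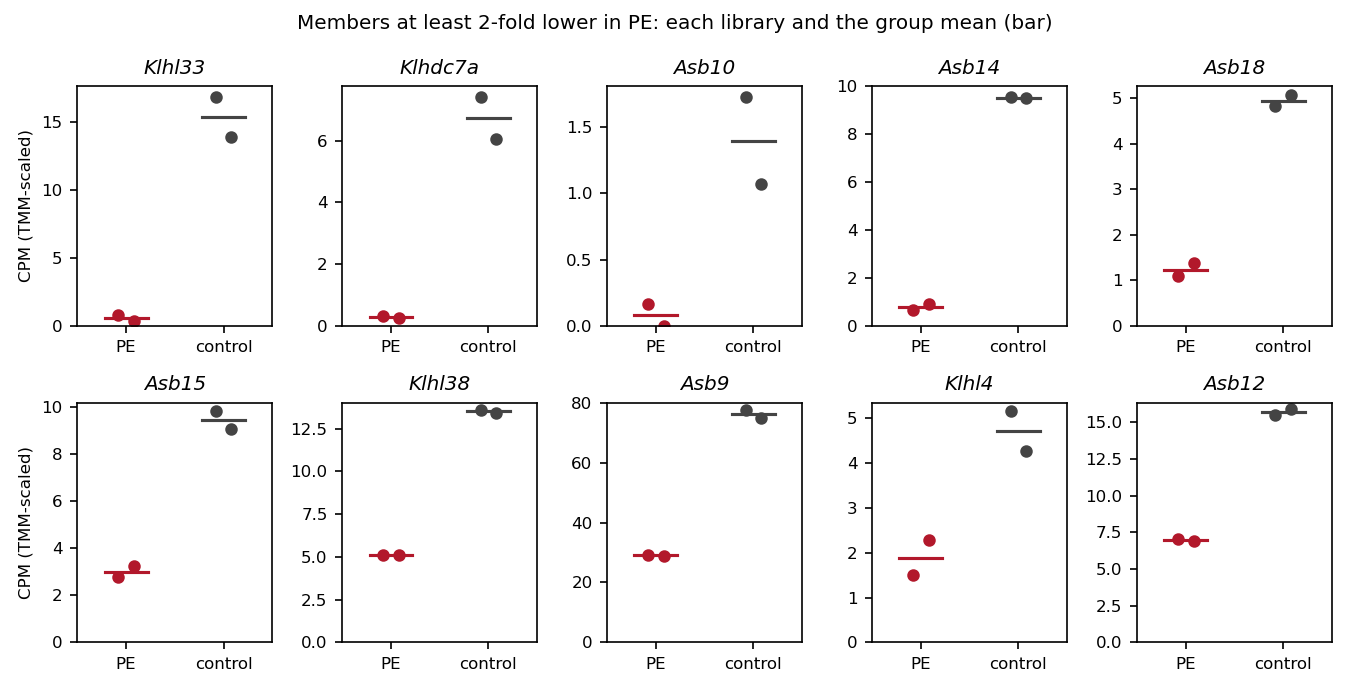
CPM scaled by TMM (y axis, from 0) of the 10 members that passed the test and were at least 2-fold lower in PE, with PE left and control right in each panel. Points are single libraries and bars group means. In all 10 panels both PE libraries lie below both control libraries, but these members were chosen by their difference in the same libraries. Of all tested ORFs, 34.3% had both PE libraries below both control libraries.

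Promoters are shown for the 4 members with the largest decreases and a mean count of at least 20, because all of them fell and they come from each of the 3 families. They were taken from RefSeq on build GRCr8, where 53 of the 57 members matched by symbol, and run 5′ to 3′ from 250 bases before the transcription start used there to 50 bases after it. Capitals mark the E-box (CANNTG), the M-CAT element (CATTCC, searched on both strands) and the MEF2 element, binding sequences of muscle transcription factors.
Klhl33, chr15:26589717-26590016, minus strand: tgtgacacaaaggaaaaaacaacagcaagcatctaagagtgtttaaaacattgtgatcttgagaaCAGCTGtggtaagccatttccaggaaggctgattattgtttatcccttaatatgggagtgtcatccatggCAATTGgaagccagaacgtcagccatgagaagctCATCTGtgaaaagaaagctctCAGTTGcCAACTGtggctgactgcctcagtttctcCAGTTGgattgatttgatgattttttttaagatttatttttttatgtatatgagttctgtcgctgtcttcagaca
Klhdc7a, chr5:157507794-157508093, minus strand: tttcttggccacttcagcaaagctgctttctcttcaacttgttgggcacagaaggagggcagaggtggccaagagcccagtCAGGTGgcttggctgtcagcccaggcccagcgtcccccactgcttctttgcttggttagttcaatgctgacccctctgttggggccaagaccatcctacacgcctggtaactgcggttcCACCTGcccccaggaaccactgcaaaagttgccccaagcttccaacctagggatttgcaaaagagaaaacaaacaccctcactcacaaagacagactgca
Asb14, chr16:2102126-2102425, plus strand: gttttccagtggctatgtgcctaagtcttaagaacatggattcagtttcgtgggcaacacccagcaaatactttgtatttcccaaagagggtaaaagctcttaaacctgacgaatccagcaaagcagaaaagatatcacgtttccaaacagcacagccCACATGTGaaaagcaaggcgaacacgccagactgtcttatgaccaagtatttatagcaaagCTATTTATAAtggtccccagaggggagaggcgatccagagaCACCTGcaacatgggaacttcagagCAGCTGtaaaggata
Asb18, chr9:98043421-98043720, minus strand: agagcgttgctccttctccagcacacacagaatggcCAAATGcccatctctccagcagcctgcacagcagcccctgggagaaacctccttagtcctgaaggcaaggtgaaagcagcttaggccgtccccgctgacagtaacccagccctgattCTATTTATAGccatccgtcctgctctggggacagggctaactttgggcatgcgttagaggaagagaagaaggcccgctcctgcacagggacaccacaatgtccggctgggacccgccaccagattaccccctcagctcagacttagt

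The Klhl33 window held 6 E-boxes, the Klhdc7a window 2, the Asb14 window 4, of which a pair overlap in one run of capitals, and the Asb18 window 1. A MEF2 match was found in the windows of Asb14 and Asb18, and an M-CAT match in none of the 4. An E-box is common, with a match in 72.1% of all 33365 promoters of this length and in 42 of 53 member promoters. A MEF2 match was found in 3.29% of all promoters and in 5 of 53 member promoters, those of Asb14, Asb16, Asb18, Klhl40 and Klhl41, and an M-CAT match in 14.2% of all promoters and 6 of 53 member promoters. Each member has 1 promoter, the first listed for its symbol, while the 33365 promoters may hold several starts of a gene. The shares are therefore of unlike sets. All of these are matches of letters and do not show binding. Of the 5 genes with a MEF2 match, Asb14 and Asb18 fell strongly, Klhl41 fell slightly, Klhl40 did not pass and Asb16 was too low to test.

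KLHL genes mostly changed little. Of 30 tested, 11 (36.7%) fell, 3 of them at least 2-fold (10% of those tested), 2 (6.67%) rose and 17 did not pass. Among all tested ORFs, 21.3% were lower, 4.49% at least 2-fold lower and 21.4% higher. The median log2 fold change of the tested KLHL genes was -0.15. Klhl38 (chromosome 7, 98188607 to 98196216), a muscle KLHL gene, had 5.10 and 5.12 CPM in PE and 13.6 and 13.4 CPM in control, a log2 fold change of -1.40 ± 0.16 (SE; adjusted p = 1.6e-08, edgeR). Klhl4 (chromosome X, 86126346 to 86228231) had 1.505 and 2.28 CPM in PE and 5.17 and 4.28 CPM in control, or -1.31 ± 0.29. Replicates of Klhl38 were nearly equal in each group, and those of Klhl4, a scarcer ORF, were further apart without overlapping between groups.

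The KLHL genes with the densest footprints also fell, by small amounts that replicate libraries resolved. Klhl9, which works with Klhl13 on CUL3 and is mutated in a human distal myopathy, was the densest member, at 265 and 249 CPM in PE and 339 and 335 CPM in control, and fell by 0.39 ± 0.03 (log2, SE). Klhl24, whose gain-of-function mutations in people cause skin fragility and cardiomyopathy, had 208 and 202 CPM in PE and 281 and 281 CPM in control, or -0.46 ± 0.03. Klhl31, a muscle protein whose loss in mice causes a myopathy with excess filamin C, had 168 and 164 CPM in PE and 199 and 204 CPM in control, or -0.28 ± 0.04. For all 3, PE libraries were below control libraries by several times the gap between replicates.

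Klhl41, a sarcomere-linked protein mutated in nemaline myopathy, had 214 and 213 CPM in PE and 234 and 231 CPM in control. The difference of -0.12 ± 0.03 on the log2 scale passed (adjusted p = 0.0043, edgeR) but not in DESeq2 (adjusted p = 0.067) or after removal of a trend with ORF length (adjusted p = 0.054). Its relative Klhl40, which stabilises the thin filament proteins nebulin and leiomodin 3 in mice, had 16.4 and 14.1 CPM in PE and 15.5 and 12.8 CPM in control. The groups overlapped and the difference of 0.11 ± 0.13 did not pass (adjusted p = 0.53). Leiomodin 3 (Lmod3) fell by 1.15 and the cardiac nebulin relative nebulette (Nebl) by 0.66 on the log2 scale, while nebulin itself (Neb) was too low to test.

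Klhl7, mutated in retinitis pigmentosa, had 132 and 125 CPM in PE and 145 and 149 CPM in control, and fell by 0.20 ± 0.04 (log2, SE). Klhl30 had 36.8 and 39.7 CPM in PE and 49.5 and 53.2 CPM in control, and fell by 0.43 ± 0.08. Klhl21, which acts on Aurora B in dividing human cells, fell by 0.31 ± 0.08. Klhl20, a CUL3 adaptor for human PML and DAPK1, fell by 0.56 ± 0.16, with 8.19 and 11.1 CPM in PE and 16.3 and 12.4 CPM in control. Its replicates were widely spaced, and the call was lost in DESeq2 (adjusted p = 0.064), without PE replicate 1, at -0.37 (adjusted p = 0.093 in edgeR), and without control replicate 1, at -0.37 (adjusted p = 0.091).

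The KLHL genes that rose were Klhl2, which leads WNK kinases to degradation, and Klhl18. Klhl2 had 12.9 and 12.3 CPM in PE and 9.39 and 6.99 CPM in control, a log2 fold change of 0.63 ± 0.16 (SE; adjusted p = 0.0016, edgeR). Without control replicate 2 it was 0.42 with an adjusted p = 0.075. Klhl18 had 13.0 and 14.5 CPM in PE and 11.6 and 9.63 CPM in control, or 0.38 ± 0.14 (adjusted p = 0.032), and did not pass in DESeq2 (adjusted p = 0.23), with library totals alone (adjusted p = 0.055), without PE replicate 2 (adjusted p = 0.20) or without control replicate 2, at 0.24 (adjusted p = 0.31). Among the WNK kinases, Wnk1 rose by 0.45 and Wnk2 fell by 0.71, Wnk3 had 0.27 and did not pass, and Wnk4 was too low to test. The 17 KLHL members that did not pass were Klhl5, Klhl6, Klhl8, Klhl11, Klhl12, Klhl13, Klhl15, Klhl17, Klhl22, Klhl25, Klhl26, Klhl28, Klhl29, Klhl32, Klhl36, Klhl40 and Klhl42, with log2 fold changes between -0.49 (Klhl15) and 0.53 (Klhl22). Klhl22 had only 0.0397 counts per P-site in the deposited annotation, against a median of 1.16 over ORFs with counts, so few of its footprints were counted.

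**Figure D3:**
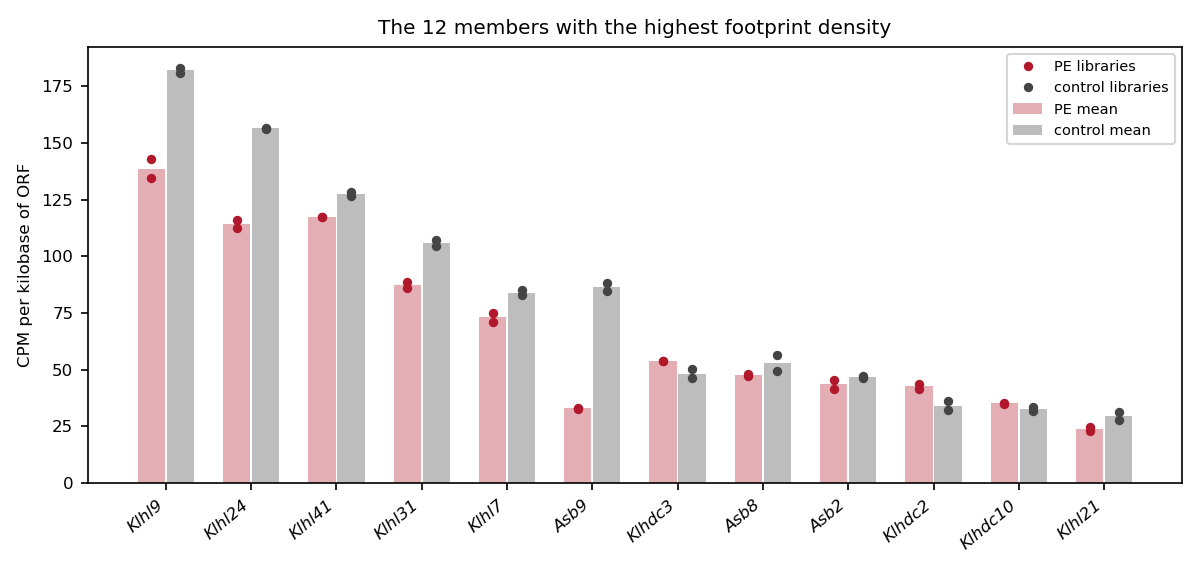
Footprint density in CPM per kilobase of ORF (y axis, from 0) of the 12 densest members, with PE left of control; bars are group means and points single libraries. Klhl9, Klhl24, Klhl41, Klhl31 and Klhl7 lead, and Asb9 has the widest gap, with 32.9 in PE and 86.4 in control.

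Compared per kilobase of ORF, the order of the densest members was Klhl9, Klhl24, Klhl41, Klhl31 and Klhl7 by the mean of all libraries. In control, Klhl9 stood at 182 CPM per kilobase, Klhl24 at 157, Klhl41 at 128, Klhl31 at 106 and Klhl7 at 83.8, each step larger than the gap between the control libraries. Asb9, at 88.0 and 84.8 in control, overlapped Klhl7 there, at 82.8 and 84.9. In PE, Klhl24 with 116 and 112 and Klhl41 with 118 and 117 were close together and in the opposite order, below Klhl9 with 143 and 134. Below these, Klhdc3, Asb8 and Asb2 were at 53.8, 47.6 and 43.4 CPM per kilobase in PE and 48.1, 53.0 and 46.9 in control, a span in which the order of the genes differed between the groups. The median density of tested members was 6.43 CPM per kilobase in PE and 6.89 in control, against 14.9 in PE and 14.8 in control over all tested ORFs.

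KLHDC genes other than Klhdc7a changed less than 2-fold. Of 8 tested, 2 (25%) rose, 1 (12.5%) fell and 5 did not pass, with a median log2 fold change of 0.24. These are shares of few genes, beside 21.4% higher and 21.3% lower over all tested ORFs. Klhdc8b had 26.1 and 28.4 CPM in PE and 14.8 and 18.0 CPM in control (chromosome 8, 117232580 to 117235649), a log2 fold change of 0.72 ± 0.11 (SE; adjusted p = 2.8e-06, edgeR). Klhdc2, a CUL2 adaptor that recognises C-terminal glycines, had 50.7 and 53.0 CPM in PE and 39.0 and 43.7 CPM in control, or 0.32 ± 0.07. In both genes all PE libraries exceeded all control libraries. The related CUL2 adaptors Klhdc3 and Klhdc10 had 0.16 and 0.11 and did not pass, although Klhdc3 passed without control replicate 2, at 0.22 (adjusted p = 0.033, edgeR). Klhdc1, Klhdc4 and Klhdc8a, all below 2 CPM in every library, had 0.96, -0.69 and 0.65 and did not pass. The Klhdc4 ORF had only 168 nt, and Klhdc1 had 0.371 counts per P-site, against a median of 1.16 over ORFs with counts.

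The 5 members that were too low to test were Asb16, Klhdc9, Klhl10, Klhl23 and Klhl34. Klhl34 had 17 and 9 counts in PE and 8 and 5 in control, a ratio of 2.11 with an exact 95% interval of 1.05 to 4.48 that covers counting error only. Asb16 had 2 and 7 counts in PE and 1 and 5 in control. Klhdc9 held 6 counts in each group and Klhl10 held 10 in PE and 9 in control, so no difference was detectable at this depth. Klhl23 had 0 counts in PE and 1 in control despite 1803 P-sites over all libraries, and its level cannot be read from the counts. Counts chose the ORF in 5 genes with more than 1 annotated ORF. The chosen and the other ORF had 172 and 8 counts in Asb3, 63 and 0 in Klhdc1, 114 and 19 in Klhl22 and 90 and 0 in Klhl29, while both ORFs of Klhl23 had 1.

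Muscle-linked members were described as a group, although that list was drawn up with results of these data known. Of 17 genes on it, 15 had an annotated ORF and 13 were tested. Of these, 11 were lower, 7 of them at least 2-fold, 0 were higher, and Asb2 and Klhl40 did not pass. Over all tested ORFs, 21.3% were lower and 4.49% at least 2-fold lower. Klhl34 and Asb16, on the list but too low to test, had more counts in PE than in control. Their ratios were 2.11 (exact interval 1.05 to 4.48) for Klhl34 and 1.58 (0.504 to 5.41) for Asb16, with counting error only. The median log2 fold change was -1.17 over the 13 and -0.03 over the 39 other tested members, of which 7 were lower and 5 higher. Among the tested genes of this list the changes spanned a wide range, from the nearly equal levels of Klhl40 and Klhl41 to the much lower Klhl33 and Asb14. Of member genes that lie close together, Klhdc2 rose by 0.32 and Klhdc1 had 0.96 and did not pass, Klhl24 fell by 0.46 and its neighbour Klhl6 had 0.01, Klhl30 fell by 0.43 and Asb1 had 0.04, and Asb10 fell far more than Klhl7.

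**Figure D4:**
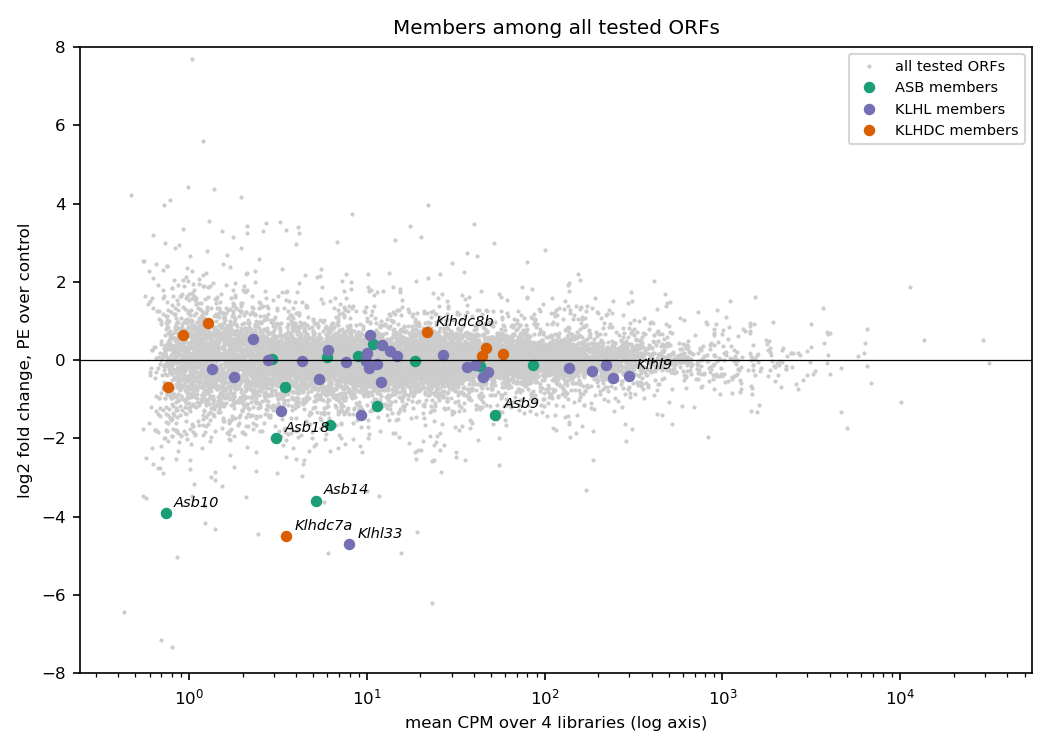
Log2 fold change of PE over control (y axis) against mean CPM over the 4 libraries (log x axis) for all 12609 tested ORFs in grey, with ASB, KLHL and KLHDC members coloured. Asb10, Asb14, Klhdc7a and Klhl33 lie at the lower edge of the cloud, and Klhdc8b, the highest called member, lies inside it.

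Besides the chosen ORFs, member genes carried 21 other listed ORFs, among them 10 upstream ORFs, short frames before the coding sequence that can bind ribosomes. Of the upstream ORFs, 7 were tested and 2 passed, a smaller share than the 42.7% called among all tested ORFs. The Asb2 upstream ORF of 114 nt had 3.76 and 3.17 CPM in PE and 6.12 and 5.28 CPM in control, a log2 fold change of -0.71 ± 0.24 (SE; adjusted p = 0.015, edgeR), beside -0.11 for the coding ORF. The 114 nt upstream ORF of Klhdc8b had 1.67 and 1.95 CPM in PE and 0.345 and 0.571 CPM in control, from 20 and 24 counts against 4 and 8. Its log2 fold change was 1.93 ± 0.50 (adjusted p = 0.0020, edgeR), beside 0.72 for the coding ORF. That ORF was tested only because both PE libraries reached the low-count filter, so its call is a description. The other tested upstream ORFs of Klhdc8b had 0.64 and 0.56 and did not pass. The difference between an upstream ORF and its coding ORF was not tested.

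Of 40 genes of the cullin-RING core and the NEDD8 pathway, which attaches the activating modifier to cullins, 37 were tested, and 19 (51.4%) were higher and 1 (2.70%) lower, where 21.4% of all tested ORFs were higher and 21.3% lower. The median log2 fold change was 0.13, and 17 did not pass. The cullins that bind the members, Cul2, Cul3 and Cul5, had 0.03, 0.07 and 0.01 and did not pass. The exchange factor Cand1, which swaps adaptors, rose by 0.23 ± 0.03 (log2, SE), the RING protein Rbx1 by 0.39 ± 0.05 and the NEDD8 enzyme Ube2m by 0.41 ± 0.05. The core gene that fell was Cul9, by 0.61 ± 0.10. Changes were small, so that 0 passed a test against 1.5-fold and 9 were higher in DESeq2. Of the 37, 5 had under 0.5 counts per P-site, among them elongin B (Elob), and elongin C (Eloc) was too low to test.

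Among adaptors outside the 3 families, called shares were near or below those of all tested ORFs, 21.4% higher and 21.3% lower. Of 31 tested BTB adaptors of CUL3, 5 (16.1%) were higher and 6 (19.4%) lower, with a median of -0.0036 on the log2 scale. The kelch protein Enc1 rose by 1.03 ± 0.06 (SE), Tnfaip1 by 0.44 and Kctd9 by 0.51, while Kbtbd3, Rhobtb2 and Kbtbd4 fell by 0.65, 0.63 and 0.67. Kbtbd4 had 0.422 counts per P-site. Keap1, the kelch adaptor that holds the oxidative stress factor NRF2 in check, had -0.13 and did not pass. Of 22 tested SOCS box proteins other than ASB, 5 (22.7%) were higher and 3 (13.6%) lower. The cytokine signalling inhibitor Socs5 rose by 0.67, Wsb1 by 0.56 and Wsb2 by 0.58, and Fem1a, Neurl2 and Socs6 fell by 0.26, 0.63 and 0.31. At least 2-fold lower were 0 genes in each of the core, BTB and SOCS box lists, against 10 of 52 members. The difference between lists was not tested. Of those members, Asb10, Asb14, Klhdc7a and Klhl33 were tested only because both control libraries reached the low-count filter. Members and lists were also chosen with results of these data known, so the counts are a description. Of 24 tested reported substrates and partners of the adaptors, 7 (29.2%) were higher and 9 (37.5%) lower. Desmin (Des) rose by 0.93, Ckmt1 by 2.99 and the lipid synthesis enzyme Acly, a target of human KLHL25, by 0.64, and Nebl, Flna and Flnc fell as given above.

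**Figure D5:**
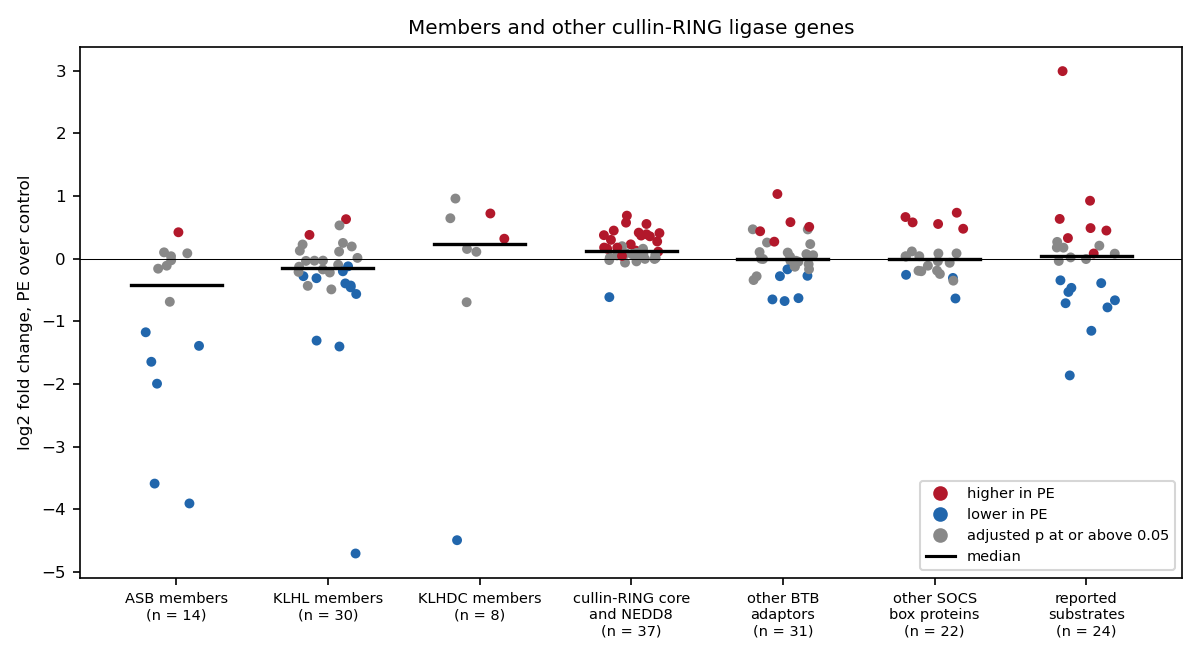
Log2 fold change of PE over control (y axis) of each tested gene in the 3 member families and in 4 lists of other cullin-RING ligase genes (x axis, with the number tested); colours as called by edgeR and a black line at the median. Values below -1 are found in the 3 member families and among the reported substrates, and the cullin-RING core lies mostly between 0 and 0.69.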

How the data were processed

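Groups and replicate numbers came from the sample titles. The submitters' processing notes name genome Rnor_6.0, STAR 2.4.2a, Bowtie 1.1.2 and cutadapt 2.0. How ORFs were called and counted is not stated in those notes. Footprint counts deposited by the authors are raw and cover 18847 ORFs. Per the file headers, a second table gives ORF class, coordinates, P-sites pooled over libraries, and the authors' DESeq2 comparison with a mean normalized coverage signal, log2 fold changes and p-values. Per-sample columns left unused numbered 0.

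After filterByExpr, TMM factors lay between 0.982 and 1.02, and edgeR 4.0.16 in R 4.3.3 gave the tests (robust quasi-likelihood, PE minus control, all 4 libraries, no replicate term), with Benjamini-Hochberg adjustment over 12609 ORFs; the test was checked on simulated data. SE is |log2 fold change| over √F. At a common biological variation (CV) of 2.18%, small changes can pass. Replicates differed by more than counting noise (chi-square per degree of freedom 1.60 in PE and 1.61 in control). DESeq2 1.42.0 and other settings were alternatives. Coordinates are those of the deposited annotation. Members and lists were chosen with earlier results of these data known. Values per library are given for members that passed with at least a 2-fold change and a mean count of at least 20, for the muscle-linked members and for the 5 densest, and, chosen after their values were seen, for Klhl20, Asb4, Klhl2, Klhl18, Klhdc8b and Klhdc2; list genes named are up to 3 with the smallest p in each direction, and other list genes were named after their values were seen, as relatives or partners of a member.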

Additional observations from a re-analysis of the deposited data

Results flagged for a closer look

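The deposited P-site columns, which the comparisons do not use, held signal on ORFs of member genes that had at most 3 counts in all libraries together. The annotated ORFs of Klhl23 of 1674 and 1788 nt had 1803 and 1796 P-sites, Klhdc1 had 115 on an annotated ORF of 909 nt, and Klhl29 had 23 on one of 1020 nt. Unannotated ORFs of Klhl20 had 240 and 272 P-sites, and ORFs inside the coding sequence of Klhdc3 and Klhl4 had 400 and 7. P-sites are pooled over libraries, so they say nothing of PE against control. Groups of 2 libraries are too small for a test of single outlying libraries.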

How the results depend on the processing

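Of 668 values of single members under alternatives, 627 kept their side of the threshold, 26 lost a call and 15 gained one. Of the 23 member calls, 19 held without each library in turn, and the exceptions were Asb4, Klhl2, Klhl18 and Klhl20. Without a library the members higher numbered 3 (without PE replicate 2) to 5 and the members lower 18 to 19; Asb10, called each time, had -7.13 without PE replicate 1, where its lone PE library held 0 counts. With 1 library left in a group, that library is assumed to vary like the others. DESeq2 called 3 members higher and 16 lower, 9 core genes higher, 3 BTB adaptors lower, 1 SOCS box gene lower, and 1724 ORFs higher and 1722 lower in all. Against a 1.5-fold change, edgeR called 0 members higher and 10 lower, 0 core genes higher and 0 lower, 1 BTB adaptor higher and 0 lower, 0 SOCS box genes higher and 0 lower, 2 substrates higher and 2 lower, and 459 ORFs higher and 550 lower in all. Library totals alone gave 4 members higher and 23 lower, and 2333 ORFs higher and 3093 lower in all. The reported setting gave 2696 ORFs higher and 2690 lower, so all tested ORFs shifted towards lower as well. The same-numbered libraries did not deviate together (correlation 0.013 over 11345 ORFs). With the replicate number as a block in edgeR, 6 members were higher and 19 lower, with Asb3 (adjusted p = 0.047) and Klhdc3 (0.046) added. That setting called 2721 ORFs higher and 2714 lower in all. The authors' deposited table had an adjusted p for 53 members, with 16 lower and 3 higher at an adjusted p under 0.05. Of all ORFs with an adjusted p there, 12.8% were lower and 12.9% higher. ORFs under about 10 counts per library are limited by depth.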
